A study of Mus musculus with 12 samples.

Results

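RAW264.7 macrophages carrying a stable shRNA against DCLK1 were compared with control RAW264.7 macrophages, both after 6 h of lipopolysaccharide (LPS) at 500 ng/ml. The comparison took 6 of the 12 libraries of the series, 3 of the shDCLK1 line with LPS and 3 of the control line with LPS, chosen by their labels. The other 6 libraries, 3 of each line left untreated, were used to set the same line difference without LPS beside it. RAW264.7 is a mouse macrophage-like tumour line; the labels give its strain as C57BL/6, whereas the line is generally described as coming from a BALB/c background. According to the treatment protocol the lines were monoclonal, and the control line carried a negative control shRNA, while the knockdown entry of the control samples reads "none". With 1 line per genotype, an effect of the shRNA and a difference between clones cannot be told apart. Nothing in the labels says that the 3 libraries of a group came from separate cultures, so p-values measure the spread between these libraries, which may be technical.

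LPS binds the TLR4 receptor complex, which signals through the adaptors MyD88 and TRIF. The MyD88 arm activates the IKK kinase complex, IKK marks the inhibitor IκBα for destruction, and the freed NF-κB dimers switch on cytokine genes together with genes of their own inhibitors. The TRIF arm induces interferon beta, whose receptor drives a later wave of antiviral genes. DCLK1 is a microtubule-associated serine/threonine kinase of the doublecortin family, and the title of the series places it upstream of NF-κB through binding to IKKβ.

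Values were deposited as FPKM (fragments scaled to transcript length and to library size) for 18190 genes. A total of 10351 genes reached 1 FPKM in at least 3 of the 6 LPS libraries and were tested on the log2(FPKM + 1) scale with limma, and a gene was called when its Benjamini-Hochberg adjusted p-value over all tested genes was below 0.05. All differences below are shDCLK1 minus control on that scale, on which changes of weakly expressed genes look smaller than they are. Deposited FPKM give no read counts. Steps in the values of 102 short RNA genes put the relative depths of the libraries between 0.975 and 1.01. A gene was used for this only where its values lay within 6% of whole multiples of the smallest. Genes showing larger depth differences would have been dropped, so this estimate cannot show that depths were equal. Across genes, r between 2 LPS libraries was 0.995 to 0.996 within a line and 0.981 to 0.985 between lines. The targeted gene, Dclk1, was listed at 0 in all 6 LPS libraries and at no more than 0.01 FPKM in any untreated library, so the knockdown cannot be checked in these data and the groups rest on the labels. Dclk2 reached at most 0.04 FPKM and Dcx at most 0.06 FPKM in the same 12 libraries. The macrophage markers Spi1, Csf1r, Adgre1, Itgam, Cd68, Lyz2, Fcgr1, Mpeg1, Tyrobp and Fcer1g were all above 15 FPKM in each LPS library. Pycard, the inflammasome adaptor that RAW264.7 is known to lack, was between 0.02 and 0.1 FPKM in these libraries; it was picked after its values were seen. No fibroblast, epithelial or lymphocyte marker passed the filter on low values, and those lists summed to at most 1.3, 0.28 and 2.36 FPKM in any LPS library. Markers of other cell types did pass. They were 2 neutrophil and mast cell markers, with Cxcr2 at up to 22.2 FPKM, and 1 endothelial marker, Pecam1, at up to 3.67 FPKM. So did 5 genes of the dendritic cell list. Bst2 was the most abundant of them, at up to 810 FPKM, while Ccr7 reached at most 8.56 FPKM.

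After LPS the shDCLK1 line had higher levels of the protease genes Plau and Mmp9, the receptor gene Csf1r, and genes of the osteoclast program, of lysosomes and of cell division. It had lower levels of Il6, Il33, Il12b, most NF-κB subunit genes, the feedback genes Nfkbia, Tnfaip3, Bcl3 and Socs3, and MHC class II genes. Of the 10351 genes, 5053 (48.8%) were called, 3483 higher (33.6%) and 1570 lower (15.2%) in shDCLK1 cells. A difference of at least 1 log2 unit was called for 154 genes in the higher direction (1.49%) and for 45 in the lower direction (0.435%). These counts depend on the value added before the logarithm, with 316 higher and 66 lower at 0.1 FPKM and 53 and 21 at 5 FPKM. Differences of at least 2 log2 units were called for 18 genes in the higher and 2 in the lower direction. The 3 libraries of each line did not overlap for 6027 genes (58.2%). The median difference of all genes was 0.06, and the ratio of calls depended on scaling: median-of-ratios scaling gave 2519 higher and 2447 lower, and quantile normalization 2255 higher and 2636 lower. Calls of higher and lower below are made against 0, so small differences have to be set beside that median. The 10 most abundant genes took 8.91% ± 0.0298 of all FPKM in shDCLK1 cells and 10.97% ± 0.211 in control cells (SD, n = 3 each). The second shDCLK1 library lay nearest to the control mean for 126 of the 199 genes with a called difference of at least 1 log2 unit. Without it, 166 genes were higher and 47 lower by at least 1 log2 unit. Of the 10351 genes, 157 reached 1 FPKM in shDCLK1 libraries alone and 25 in control libraries alone. Such a gene entered the test only through the line where it was high, and its call supports nothing. Among the 199 genes, 31 of the higher and 6 of the lower ones were of this kind. Counts of lists that hold such genes are given below without them too.

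**Figure D1:**
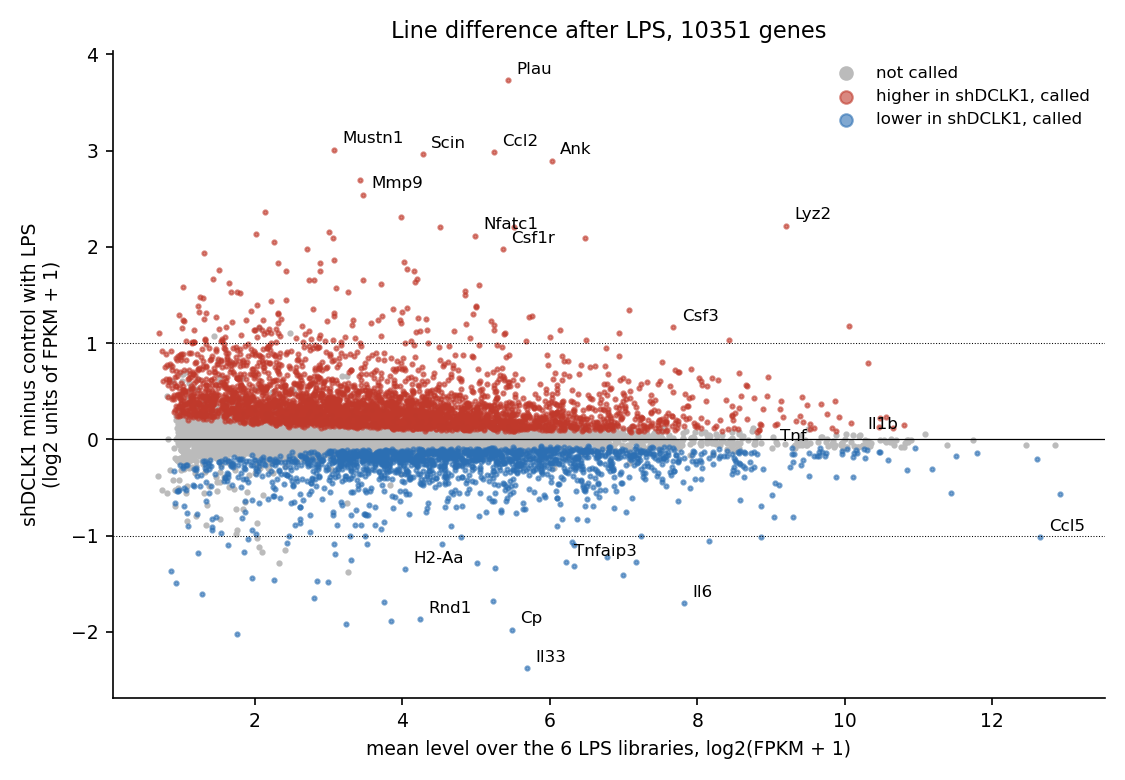
Each point is 1 of 10351 genes, with its mean level over the 6 LPS libraries in log2(FPKM + 1) on the x axis and the shDCLK1 minus control difference in log2 units on the y axis; red points were called higher, blue points lower and grey points not called, and dotted lines mark 1 log2 unit. Plau lies highest at 3.73 and Il33 lowest at -2.38, while Tnf and Il1b lie near 0.

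Most receptor and adaptor genes at the top of the pathway differed by small amounts. Of 18 tested genes for TLR4 recognition and adaptors, 4 were higher and 6 lower, with a list median of -0.01, against 33.6% of all genes called higher and 15.2% called lower, shares that stand behind each list count below. With median-of-ratios scaling 2 were higher and 9 lower. Tlr4 itself, the LPS receptor, had 2.64, 2.15 and 2.45 FPKM in shDCLK1 cells and 1.18, 1.03 and 1.11 FPKM in control cells. The groups did not overlap and the difference was 0.69 (SE 0.078, adjusted p = 0.000184), the largest of this list. Traf3, a ubiquitin ligase of the TRIF arm, was higher by 0.24 (adjusted p = 0.0116), a call lost under quantile normalization (0.12, adjusted p = 0.12). Irak2, a kinase of the MyD88 complex, was lower at -0.20 (adjusted p = 0.00041), and Ticam2, the adaptor that links TLR4 to TRIF, at -0.32 (adjusted p = 0.00582).

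Among 11 genes of the IKK complex and its upstream kinases, 1 was higher and 2 were lower, and 8 were not called. Ikbkb, which encodes IKKβ, had 19.5, 20.0 and 19 FPKM in shDCLK1 cells against 19.3, 19.7 and 18.8 FPKM in control cells. These ranges overlapped, and the difference of 0.02 was not called (adjusted p = 0.701); it became -0.05 with median-of-ratios scaling and -0.06 with quantile normalization. Chuk, encoding IKKα, differed by -0.05 (adjusted p = 0.324) and Ikbkg, encoding the scaffold NEMO, by 0.13 (adjusted p = 0.0568), neither of them called. Chuk was called lower with median-of-ratios scaling, at -0.12 (adjusted p = 0.0397). The call for Ikbkg was gained with equal FPKM sums, at 0.15 (adjusted p = 0.0478), and without the second shDCLK1 library, at 0.17 (adjusted p = 0.0218). Map3k14, the NF-κB-inducing kinase of the non-canonical arm, was higher by 0.37 (adjusted p = 0.00111). Map3k8, the kinase TPL2, which runs from IKK to ERK, was lower, with 7.4, 8.7 and 7.87 FPKM against 12.9, 13.5 and 13.9 FPKM in control cells, a difference of -0.68 (SE 0.059, adjusted p = 4.18e-05).

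Most NF-κB subunit genes were lower. Of the 5 subunit genes, 4 were lower and none was higher, with a median of -0.41, against 15.2% of all genes called lower. The fifth was not called, with a difference of 0.02. Nfkb1, which encodes the precursor of the p50 subunit, had 215, 210.5 and 216 FPKM in shDCLK1 cells and 290.2, 279.9 and 283 FPKM in control cells, a difference of -0.41 (SE 0.027, adjusted p = 9.59e-06). Nfkb2, its non-canonical counterpart, had 160.4, 152 and 159.7 FPKM against 224, 216 and 224 FPKM, and Rel, encoding c-Rel, was lower, at -0.43 (adjusted p = 1.52e-05). The 3 libraries of each line were separate for all of these. Rela, encoding the p65 subunit, averaged 26 ± 1.91 FPKM in shDCLK1 cells and 28.9 ± 0.406 FPKM in control cells (SD, n = 3 each). Its difference of -0.15 passed by a small margin (adjusted p = 0.039), and the call was lost when any 1 of 5 of the 6 libraries was left out, the second shDCLK1 library among them (-0.09, adjusted p = 0.063). The call was also lost without the filter on low values (adjusted p = 0.082), with equal FPKM sums (0.065) and without the variance trend (0.063).

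Inhibitors that NF-κB itself induces went both ways, and several abundant ones were lower. Of 20 genes for IκB proteins and other feedback regulators, 10 were lower and 5 higher, with a median of -0.10. Nfkbia, which encodes IκBα, had 347, 369 and 354 FPKM in shDCLK1 cells and 579, 574 and 581 FPKM in control cells. The lowest control library was above the highest shDCLK1 library by far more than either group's spread, and the difference was -0.70 (SE 0.030, adjusted p = 1.15e-06). Tnfaip3, encoding the deubiquitinating enzyme A20, had 40.9, 43.8 and 42.8 FPKM against 103, 103 and 106 FPKM in control cells, 2.45-fold lower in shDCLK1 cells (-1.27 log2 units, SE 0.033, adjusted p = 1.04e-07). Bcl3, a nuclear IκB protein, had 40.5, 49.1 and 45.9 FPKM against 110.4, 116 and 115 FPKM in control cells (-1.32, SE 0.063, adjusted p = 1.95e-06). Socs3, which restrains signalling by IL-6 family receptors, averaged 185 ± 4.46 FPKM and 387 ± 4.03 FPKM (-1.06, adjusted p = 1.04e-07). Members that were higher included Nfkbid, another nuclear IκB protein (0.38, adjusted p = 0.000235), and Usp18, which trims ISG15 and dampens interferon signalling (0.32, adjusted p = 0.000201).

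Il6 and the feedback genes Tnfaip3 and Nfkbia, all 3 lower, were picked for display because a classical κB site lies close to the start in each. The choice is therefore no evidence about lower genes in general. They are shown with the 250 bases before their annotated starts (RefSeq, GRCm38.p6; the region is chr5:30012864-30013113 on the plus strand for Il6, chr10:19015411-19015660 on the minus strand for Tnfaip3 and chr12:55492648-55492897 on the minus strand for Nfkbia, each printed 5′ to 3′ in the direction of the gene). Capitals mark matches to the NF-κB consensus of 10 bases, searched on both strands. The Il6 and Tnfaip3 windows also hold the AP-1 motif TGANTCA, which is not marked.
Il6: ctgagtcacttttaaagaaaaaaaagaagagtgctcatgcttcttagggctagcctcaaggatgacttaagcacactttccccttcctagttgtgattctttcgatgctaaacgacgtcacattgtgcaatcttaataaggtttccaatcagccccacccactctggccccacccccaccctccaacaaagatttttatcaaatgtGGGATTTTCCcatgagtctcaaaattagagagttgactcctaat
Tnfaip3: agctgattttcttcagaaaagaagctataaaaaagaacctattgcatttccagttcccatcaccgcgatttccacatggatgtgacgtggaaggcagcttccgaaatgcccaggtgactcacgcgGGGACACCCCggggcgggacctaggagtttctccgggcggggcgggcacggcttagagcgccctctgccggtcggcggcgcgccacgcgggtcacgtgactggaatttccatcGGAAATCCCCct
Nfkbia: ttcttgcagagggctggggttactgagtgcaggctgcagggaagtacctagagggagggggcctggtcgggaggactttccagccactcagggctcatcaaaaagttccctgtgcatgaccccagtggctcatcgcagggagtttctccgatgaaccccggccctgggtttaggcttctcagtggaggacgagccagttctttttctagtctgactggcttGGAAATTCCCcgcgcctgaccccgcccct
The Il6 window held 1 match, which ended 34 bases before the start. The Tnfaip3 window held 2, ending 115 and 2 bases before the start, and the Nfkbia window held 1, ending 19 bases before it. Over windows from 250 bases before to 50 bases after the start, the consensus occurred in 12.2% of the 8242 tested genes with a RefSeq window. It occurred in 9 of the 29 genes with a window among those lower by at least 1 log2 unit (31%), namely Il6, H2-Aa, Bcl3, Sbno2, Tnfaip3, Il4ra, Hspa1b, Stat5a and Sema4c, and in 19 of 109 among those higher by at least 1 log2 unit (17.4%). The AP-1 motif TGANTCA occurred in 7 of the 29 lower genes (24.1%), in 16 of the 109 higher genes (14.7%) and in 5.88% of all tested genes. The interferon-stimulated response element, also searched by its consensus, was found in 1 of the 29 (3.45%), in 6 of the 109 (5.5%) and in 4.15% of all. No overlap between the motifs was taken out, both strands were read, and these matches describe letters in a window and no test was made.

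Il6 and Il33 were the named cytokine genes with the lowest values relative to control. Of 23 tested inflammatory cytokine genes, 10 were lower and 6 higher, with a median of -0.09. Il6, the acute-phase cytokine, had 105, 111 and 102 FPKM in shDCLK1 cells and 341, 349 and 348 FPKM in control cells. All 3 shDCLK1 values lay far below every control value, with a 3.27-fold lower mean (-1.70, SE 0.036, adjusted p = 3.61e-08). Il33, an alarmin of the IL-1 family, was not in that list and was near 0 without LPS. With LPS it had 14.5, 18.1 and 14.7 FPKM in shDCLK1 cells against 86.8, 87.4 and 83.1 FPKM in control cells, 5.45-fold lower (-2.38, SE 0.074, adjusted p = 2.25e-07), the lowest difference among named genes. Il12b, the p40 subunit shared by IL-12 and IL-23, was low in both lines, with 1.74, 1.67 and 1.6 FPKM against 4.33, 4.25 and 3.85 FPKM in control cells (-0.94, adjusted p = 1.11e-05). Il27, which encodes a subunit of interleukin 27, had 251, 365 and 316 FPKM against 622, 603 and 645 FPKM in control cells, with the second shDCLK1 library highest of its group (-1.02, SE 0.11, adjusted p = 0.00018).

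Tnf and Il1b, the classical early products of LPS, did not pass the test. Tnf had 471, 539.9 and 493 FPKM in shDCLK1 cells and 530.1, 528 and 537 FPKM in control cells, and the second shDCLK1 library was above all control libraries. The difference of -0.09 was not called (adjusted p = 0.162), but it was called with median-of-ratios scaling (-0.16, adjusted p = 0.0297) and without that library (-0.14, adjusted p = 0.00533). Il1b had 1167, 1203 and 1192 FPKM against 1140.4, 1133 and 1196 FPKM in control cells, overlapping ranges with a difference of 0.04 (adjusted p = 0.333), which was -0.03 with median-of-ratios scaling and called at 0.06 with quantile normalization (adjusted p = 0.0464). Ifnb1, interferon beta, had 1.41, 3.27 and 2.8 FPKM against 3.36, 2.91 and 2.04 FPKM in control cells and was not called (-0.14, adjusted p = 0.63); without the first shDCLK1 library the difference was 0.11. Csf3, the granulocyte colony-stimulating factor, was higher in each shDCLK1 library, with 322, 245 and 281 FPKM against 121, 126 and 127 FPKM in control cells (1.17, SE 0.084, adjusted p = 1.69e-05). Osm, which encodes oncostatin M, averaged 53.9 ± 6.12 FPKM against 34.6 ± 1.58 FPKM (0.62, adjusted p = 0.000245), and Tnfsf10, the death ligand TRAIL, 6.8 ± 0.426 FPKM against 4.29 ± 0.101 FPKM (0.56, adjusted p = 8.21e-05).

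Chemokine genes moved in both directions. Of 16 tested, of 21 in the table, 8 were higher and 6 lower. Of the higher ones 3 reached 1 FPKM in shDCLK1 cells alone. Without them 5 of 13 were higher and 6 lower, and the list median went from 0.11 to -0.175. Ccl2, the ligand of CCR2 that recruits monocytes, had 68.6, 61 and 68.4 FPKM in shDCLK1 cells and 6.47, 9.05 and 7.05 FPKM in control cells, an 8.77-fold higher mean (2.98, SE 0.10, adjusted p = 3.49e-07). Ccl7, its neighbour in function, had 4.32, 2.74 and 3.25 FPKM against 0.24, 0.36 and 0.3 FPKM in control cells (a difference of 1.76), and the difference of Ccl6 was 1.27; both passed the filter on low values through shDCLK1 cells alone. The abundant chemokines went the other way: Ccl5 had 4209, 4438 and 4147 FPKM in shDCLK1 cells and 8021, 9024 and 8790.4 FPKM in control cells, 2.02-fold lower (-1.01, SE 0.050, adjusted p = 2.20e-06). Ccl3, a macrophage inflammatory protein, had 6207, 6387 and 6073 FPKM against 8676, 9459 and 9520.4 FPKM in control cells (-0.57, adjusted p = 2.31e-05). Cxcl10, the interferon-induced ligand of CXCR3, had 351, 411 and 380.2 FPKM against 637, 692 and 673 FPKM in control cells, also without overlap (-0.81, SE 0.057, adjusted p = 1.42e-05). Ccl3 and Ccl5 were among the 10 most abundant genes of both lines.

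**Figure D2:**
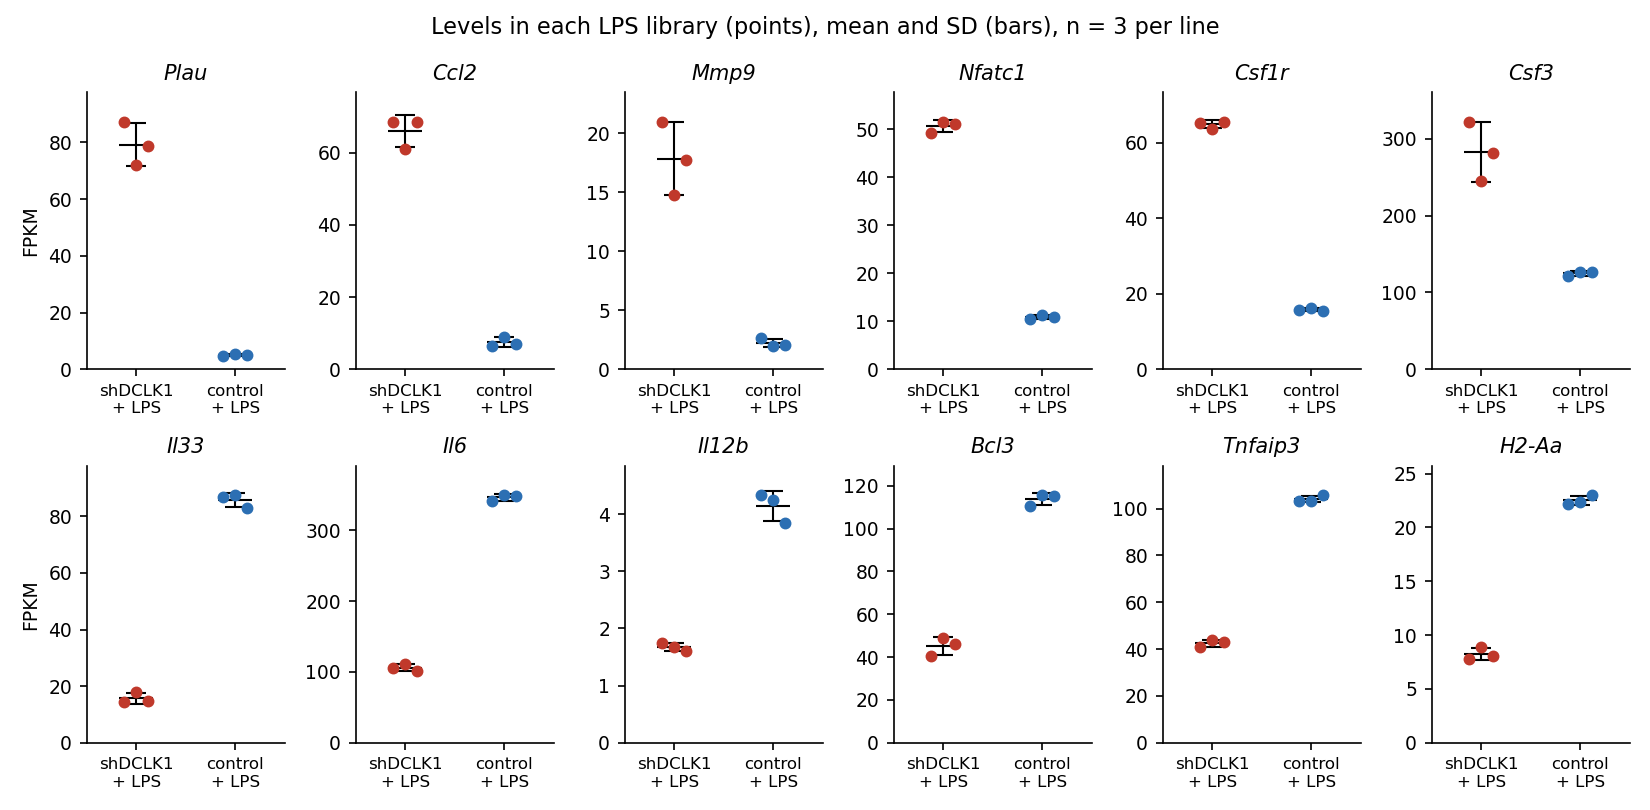
FPKM (y axis, linear, from 0) of 12 genes in each of the 3 shDCLK1 and 3 control libraries with LPS (points), with the mean and SD as bars. The upper row holds genes higher in shDCLK1 cells, such as Plau at a mean of 79.2 against 5.03 FPKM, and the lower row genes that were lower, such as Il6 at 106 against 346 FPKM; the groups did not overlap in any panel.

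Secreted enzymes and mediators moved in both directions. Of 26 tested inflammatory enzymes and mediators, 13 were lower and 9 higher, with a median of -0.19. Of the higher ones 2 reached 1 FPKM in shDCLK1 cells alone. Without these 13 of 24 were lower and 7 higher, with a median of -0.27. Cp, ceruloplasmin, a copper-carrying acute-phase protein, had 14.8, 19.9 and 17.2 FPKM in shDCLK1 cells and 71.1, 71 and 69.6 FPKM in control cells, 4.08-fold lower (-1.98, SE 0.085, adjusted p = 1.22e-06). Edn1, the vasoconstrictor peptide endothelin, was lower, at -1.25 (adjusted p = 1.29e-05). Plau, the urokinase plasminogen activator, was the gene most above 0 in the comparison, with 87.2, 71.8 and 78.5 FPKM in shDCLK1 cells and 4.81, 5.36 and 4.91 FPKM in control cells. Its lowest shDCLK1 library was still far above every control library, and the mean was 15.8-fold higher (3.73, SE 0.069, adjusted p = 1.59e-08). Mmp9, the gelatinase that degrades basement membrane collagen, had 21, 14.8 and 17.8 FPKM against 2.62, 1.98 and 2.05 FPKM in control cells, 8.05-fold higher (2.54, SE 0.12, adjusted p = 1.95e-06). Clec4d, a C-type lectin receptor, was higher by 1.10 (adjusted p = 2.87e-05).

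Immediate-early regulators were also divided, with 13 of 31 genes of the AP-1, EGR and early factor list higher and 14 lower. Of the higher ones 2 reached 1 FPKM in shDCLK1 cells alone, and without these 11 of 29 were higher and 14 lower. Dusp1, the phosphatase that switches off p38 and JNK, had 82.7, 83.2 and 82.4 FPKM in shDCLK1 cells and 196, 205 and 205 FPKM in control cells, with almost no spread among the shDCLK1 libraries (-1.28, SE 0.028, adjusted p = 4.05e-08). Atf3, a repressor of inflammatory genes, averaged 50.1 ± 7.35 FPKM against 105 ± 1.19 FPKM (-1.07, adjusted p = 3.06e-05), and Batf was lower, at -1.04 (adjusted p = 9.56e-05). Dusp6, the phosphatase that acts on ERK, went the other way, with 7.29, 6.4 and 6.96 FPKM against 1.6, 2.06 and 2.03 FPKM in control cells (1.45, adjusted p = 3.98e-06). The Krüppel-like factor gene Klf2 was higher as well (1.04, adjusted p = 3.28e-05). Its relative Klf10 passed the filter through shDCLK1 cells alone, with a difference of 1.14.

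Transcripts of MHC class II, which presents antigen to helper T cells, were lower after LPS. Of 11 tested class II and co-stimulation genes, of 17 in the table, 7 were lower and 2 higher, with a median of -0.33. H2-Ab1 and H2-Aa encode the beta and alpha chains of the I-A molecule. H2-Aa had 7.76, 8.91 and 8.05 FPKM in shDCLK1 cells and 22.1, 22.4 and 23 FPKM in control cells, 2.73-fold lower (-1.35, SE 0.051, adjusted p = 5.81e-07), and H2-Ab1 had 3.08, 2.24 and 3.12 FPKM against 9.43, 9.38 and 9.79 FPKM (-1.47, adjusted p = 7.39e-06). H2-Eb1, the I-E beta chain, was lower, at -0.86 (adjusted p = 3.52e-05). The I-E alpha entry, annotated in the table as the pseudogene H2-Ea-ps, had 2.8, 3.07 and 2.91 FPKM against 13.5, 14.6 and 13.6 FPKM in control cells (-1.92, SE 0.050, adjusted p = 1.04e-07). The co-stimulatory ligand gene Cd80 (0.44, adjusted p = 0.000221) and the class II processing protease gene Ctss (0.45, adjusted p = 6.56e-06) were the 2 that were higher. The MHC class I list stood near 0, with 6 of 22 genes higher and 4 lower; with median-of-ratios scaling 9 were lower, and its median of 0.02 became -0.05. Class I genes such as H2-Q6 (0.47) and H2-T22 (0.43) belong to families of near-identical copies, so their reads may be split among them. Among dendritic cell markers, 2 of 5 tested were higher, Itgax and Bst2, and 2 were lower, Ccr7 and Xcr1. Ccr7, the migration receptor among them, was lower (-0.96, adjusted p = 0.000337).

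Interferon-induced genes went both ways after LPS. Of 52 effector genes of the IFIT, OAS, MX and ISG kind, 18 were higher and 21 lower, with a median of -0.04 and differences from -0.90 to 0.98. With median-of-ratios scaling 12 were higher and 26 lower. Oasl2, an oligoadenylate synthetase-like protein, had 225, 227 and 222 FPKM in shDCLK1 cells and 217, 221 and 229 FPKM in control cells, which overlapped (0.01, adjusted p = 0.703); the sign turned to -0.06 with median-of-ratios scaling and to -0.02 with quantile normalization. Ifi27 was lower, with 41, 51.9 and 47.5 FPKM against 86.9, 87.3 and 89.6 FPKM in control cells (-0.90, adjusted p = 3.14e-05), as were Ms4a4c (-0.83) and Slfn1 (-0.55). Ifitm6, of the family of membrane proteins that block viral entry, was higher, with 52.5, 51.2 and 48.9 FPKM against 23.4, 26.9 and 25.9 FPKM in control cells (0.98, SE 0.053, adjusted p = 3.98e-06). Trim30d (0.83, adjusted p = 0.000132) and Ifit3b (0.52, adjusted p = 3.49e-06) were higher too, and both have close paralogs that could share reads.

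Of 17 guanylate-binding proteins and IRG GTPases, which attack vacuoles that hold pathogens, 8 were higher and 4 lower. Gbp4 (0.80, adjusted p = 3.05e-05) and Gbp9 (0.62, adjusted p = 4.70e-06) were higher and Gbp5 was lower (-0.51, adjusted p = 0.000924). Transcription factors and kinases of the interferon and cytokine pathways included 4 higher and 6 lower of 19, or 4 and 10 with median-of-ratios scaling and 3 and 9 with quantile normalization. Irf8, a factor that defines macrophage and dendritic lineages, had 55.2, 72.4 and 66.2 FPKM in shDCLK1 cells and 115, 115 and 117 FPKM in control cells (-0.84, SE 0.083, adjusted p = 9.20e-05). Jak2, the kinase of several cytokine receptors, had 54.4, 51.6 and 53.5 FPKM against 83, 80.5 and 81.4 FPKM in control cells (-0.61, adjusted p = 2.67e-06). Stat3, which carries the IL-6 signal, had 74.9, 74.7 and 75.2 FPKM against 106, 105 and 104 FPKM (-0.48, adjusted p = 3.18e-06). Irf2 was higher (0.44, adjusted p = 0.000111).

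Sensors of nucleic acids and microbes included 10 higher and 6 lower of 22, and 7 of each with median-of-ratios scaling. Tlr13, a receptor for bacterial ribosomal RNA, had 4.61, 3.8 and 4.19 FPKM in shDCLK1 cells and 1.13, 1.18 and 1.27 FPKM in control cells (1.24, SE 0.074, adjusted p = 6.34e-06), and Tlr3, the receptor for double-stranded RNA, was higher by 0.56 (adjusted p = 1.75e-05). Ifi205, of the AIM2-like receptor family, was lower (-0.66, adjusted p = 0.00133). Of 14 inflammasome and pyroptosis genes, 10 were higher and 1 lower, with a median of 0.19, against 33.6% and 15.2% of all genes. Txnip, a thioredoxin-binding protein that can engage NLRP3, had 78.8, 68.3 and 72.8 FPKM against 29.6, 29.8 and 29.9 FPKM in control cells (1.27, SE 0.049, adjusted p = 6.77e-07), and Ninj1, which ruptures the membrane at the end of pyroptosis, was higher by 0.66 (adjusted p = 1.38e-05). Casp4, the sensor of cytosolic LPS known in mice as caspase-11, was the member that was lower (-0.22, adjusted p = 0.00803). With median-of-ratios scaling the counts of this list were 6 higher and 2 lower.

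Some macrophage identity genes were among those furthest above 0, while others were level or lower. Of 28 tested, of 35 in the table, 17 were higher and 7 lower, with a median of 0.35. Of the higher ones 1 reached 1 FPKM in shDCLK1 cells alone. Without it 16 of 27 were higher and 7 lower, with a median of 0.34, beside 33.6% of all genes called higher. Csf1r, the receptor for macrophage colony-stimulating factor, had 65.4, 63.7 and 65.6 FPKM in shDCLK1 cells and 15.6, 16.2 and 15.5 FPKM in control cells, 4.12-fold higher (1.98, SE 0.032, adjusted p = 1.08e-08). Clec7a, the beta-glucan receptor dectin-1, had 9.59, 8.63 and 9.93 FPKM against 1.28, 1.81 and 1.82 FPKM in control cells (1.98, adjusted p = 1.81e-06). Lyz2, the macrophage lysozyme, had 1013, 928 and 958 FPKM in shDCLK1 cells and 201, 207 and 211 FPKM in control cells, 4.68-fold higher (2.22, SE 0.037, adjusted p = 1.08e-08). Lyz1 lay alongside it at 2.20, but the genes are near-identical copies and reads may be shared between them. Siglec1, the sialic acid receptor sialoadhesin, had 37.7, 36.2 and 36 FPKM against 7.47, 6.96 and 7.13 FPKM in control cells (2.20, adjusted p = 1.38e-08). On the lower side were Fcgr2b, the inhibitory Fc receptor (-0.76, adjusted p = 3.05e-05), and Cebpb, a factor of inflammatory macrophages (-0.53, adjusted p = 2.68e-05). The macrophage markers named at the start were divided too. Csf1r, Adgre1, Cd68, Lyz2 and Tyrobp were higher in every shDCLK1 library, and Spi1 and Mpeg1 overlapped between the lines. Itgam (41.6, 40.1 and 40 FPKM against 47.7, 48.8 and 45.8 FPKM in control cells), Fcgr1 and Fcer1g were lower in every shDCLK1 library.

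RAW264.7 cells can differentiate into osteoclasts. Of 11 tested genes of the osteoclast program, 8 were higher while none was lower, with a median of 0.92. Among all genes 33.6% were called higher. The list has 14 genes in the table, and 2 of the higher ones reached 1 FPKM in shDCLK1 cells alone; without these 6 of 9 were higher, with a median of 0.68. The median of the 11 was 2.12 with a pseudocount of 0.1 FPKM and 0.52 with 5 FPKM. Nfatc1, the master factor of that program, had 49.2, 51.6 and 51.2 FPKM in shDCLK1 cells and 10.5, 11.4 and 10.9 FPKM in control cells, 4.64-fold higher (2.12, SE 0.040, adjusted p = 1.59e-08). Car2, the carbonic anhydrase that supplies protons to acidify bone, had 146, 141 and 143 FPKM against 32.7, 33.8 and 32 FPKM in control cells (2.09, SE 0.031, adjusted p = 8.97e-09). Acp5, tartrate-resistant acid phosphatase, had 13.1, 11.6 and 11.9 FPKM against 2.72, 2.97 and 2.21 FPKM in control cells (1.87, adjusted p = 1.36e-06), and Mmp9, described above, is also a member. Ank, the pyrophosphate transporter of mineralizing tissue, was not in the list and had 113, 116 and 114 FPKM against 14.5, 14.7 and 14.3 FPKM in control cells (2.90, SE 0.028, adjusted p = 5.37e-10). Csf1r, Clec7a and Acp5 were chosen after their values were seen; the other genes named here follow a fixed rule.

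Scin, the actin-severing protein scinderin, had 36.9, 29.4 and 34.2 FPKM in shDCLK1 cells and 3.43, 3.26 and 3.51 FPKM in control cells, 9.85-fold higher (2.96, SE 0.076, adjusted p = 1.04e-07). Mustn1, known from muscle and skeletal tissue, had 14.8, 13.1 and 14.2 FPKM against 0.72, 0.99 and 0.89 FPKM in control cells, a difference of 3.01; it passed the filter through shDCLK1 cells alone. Slc37a2, a sugar-phosphate transporter abundant in macrophages, was higher by 2.31 (adjusted p = 3.49e-07), and the linker histone gene Hist1h1c by 2.15 (adjusted p = 2.20e-06). At the other end, Avil, an actin-binding relative of villin, had 7.14, 3.53 and 5 FPKM in shDCLK1 cells and 20.8, 21.4 and 22.2 FPKM in control cells (-1.89, SE 0.18, adjusted p = 6.33e-05). Rnd1, an atypical small GTPase, had 6.68, 7.57 and 7.18 FPKM against 29.2, 27.2 and 29.8 FPKM in control cells (-1.87, SE 0.053, adjusted p = 1.42e-07). Marcks, a substrate of protein kinase C at the membrane (-1.65, adjusted p = 2.19e-07), and Tnc, the matrix glycoprotein tenascin-C (-1.48, adjusted p = 3.30e-05), were lower, and the stress-induced chromatin protein gene Nupr1 had 63, 77.4 and 65.8 FPKM against 178, 188 and 184 FPKM in control cells (-1.41, adjusted p = 2.13e-06).

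Lysosomal genes were higher in 27 of 35 cases and lower in 3, with a median of 0.30. Of the higher ones 1 reached 1 FPKM in shDCLK1 cells alone. Without it 26 of 34 were higher and 3 lower, with a median of 0.27, beside 33.6% of all genes called higher. Gusb, the enzyme beta-glucuronidase, had 114, 102 and 108 FPKM in shDCLK1 cells and 63.4, 61.9 and 62.8 FPKM in control cells (0.77, SE 0.040, adjusted p = 3.10e-06). Glb1, beta-galactosidase, was higher by 0.74 (adjusted p = 6.63e-06) and Ctsb, cathepsin B, by 0.65 (adjusted p = 1.69e-05), while Ctsc, cathepsin C, was lower (-0.37, adjusted p = 7.70e-05). Among 11 tested genes of cholesterol efflux and the nuclear receptor LXR, 6 were higher and 2 lower; their median of 0.41 was 0.67 with a pseudocount of 0.1 FPKM and 0.15 with 5 FPKM. The exporter genes Abcg1 (4.02, 4.73 and 4.8 FPKM against 1.14, 1.18 and 1.22 FPKM in control cells, 1.34, adjusted p = 3.98e-06) and Abca1 (0.77, adjusted p = 2.03e-05) were the highest, and Mylip, a ubiquitin ligase for the LDL receptor, was lower (-0.39, adjusted p = 0.0041). Cholesterol synthesis and uptake showed 3 higher and 6 lower of 22, or 1 and 10 with median-of-ratios scaling and 0 and 8 with quantile normalization, the lower ones including Srebf2 (-0.33) and Hmgcs1 (-0.31). Of 7 tested alternative activation genes, of 13 in the table, 3 were higher, among them Tgm2 (1.35), and 3 were lower, among them Il4ra (-1.19), the IL-4 receptor, and Cish (-0.69). The eotaxin gene Ccl24, another of the higher ones, had 1.65, 1.92 and 1.81 FPKM in shDCLK1 cells and 0.13, 0.12 and 0.17 FPKM in control cells. It so passed the filter through shDCLK1 cells alone, and without it 2 of 6 were higher and 3 lower.

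Cell division genes were higher in the shDCLK1 line almost without exception. Of 41 mitosis and spindle genes, 40 were higher and none lower, with a median of 0.80, and of 39 DNA replication genes 36 were higher and none lower, with a median of 0.56, against 33.6% of all genes called higher. Of the higher ones, 8 mitosis and 3 replication genes reached 1 FPKM in shDCLK1 cells alone; without them 32 of 33 and 33 of 36 were higher, with medians of 0.82 and 0.53. Birc5, the chromosomal passenger survivin, had 4.87, 5.57 and 4.3 FPKM in shDCLK1 cells and 1.78, 1.82 and 1.47 FPKM in control cells (1.13, SE 0.092, adjusted p = 3.06e-05). Ccna2, cyclin A, had 4.74, 4.64 and 5.4 FPKM against 1.81, 1.82 and 1.67 FPKM in control cells (1.10, adjusted p = 7.34e-06), and Kif23, a kinesin of cytokinesis, was higher by 1.10. Mcm7, a subunit of the replicative helicase, had 12.9, 13.1 and 12.7 FPKM against 5.04, 5.22 and 5.02 FPKM in control cells (1.19, SE 0.040, adjusted p = 3.30e-07). Rrm2, which makes deoxynucleotides, was higher by 1.303 and Mcm10 by 0.94. These levels were low beside the untreated cells, where Mcm7 averaged 83.1 ± 1.96 FPKM in shDCLK1 cells and 100.1 ± 0.779 FPKM in control cells (SD, n = 3 each). In bulk RNA, fewer cells of a kind (here, cells in division) and less RNA per cell cannot be told apart. The list counts were 35 and 40 higher, for replication and mitosis, with either median-of-ratios scaling or quantile normalization. With a pseudocount of 5 FPKM the medians were 0.34 for replication and 0.38 for mitosis. Among 15 G1 cyclin and CDK inhibitor genes, Ccnd1, cyclin D1, stood out with 182, 205 and 192 FPKM against 74.6, 75.8 and 75.7 FPKM in control cells (1.34, SE 0.042, adjusted p = 2.29e-07), while Ccnd2, cyclin D2, was lower (-0.56, adjusted p = 0.000201).

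Stress response and glycolytic genes leaned lower with LPS, and the glycolytic genes also did so without it. Of 22 genes of the integrated stress and unfolded protein responses, 14 were lower and 2 higher, with a median of -0.21. Ddit4, an inhibitor of mTOR signalling, had 4.93, 6.46 and 4.8 FPKM in shDCLK1 cells and 20.1, 19.7 and 18.9 FPKM in control cells, 3.63-fold lower (-1.69, SE 0.090, adjusted p = 3.56e-06). Trib3, a pseudokinase induced by ATF4, was lower, at -1.09 (adjusted p = 6.34e-06), and Chac1, which degrades glutathione, at -0.75 (adjusted p = 5.04e-05). Of 25 glycolysis and hypoxia genes, 11 were lower and 6 higher, or 15 and 3 with median-of-ratios scaling. Pfkfb3, which makes the activator of phosphofructokinase, had 14.4, 19.2 and 17.1 FPKM against 56.4, 55.2 and 56.4 FPKM in control cells (-1.68, SE 0.085, adjusted p = 2.66e-06). Bnip3, a mitophagy receptor, was lower (-0.68, adjusted p = 2.53e-05), whereas Hk3, a myeloid hexokinase, was higher (0.87, adjusted p = 3.49e-06).

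Oxidative phosphorylation genes were higher by small amounts, 20 of 35 with none lower and a median of 0.12, and the top members were Sdhb (0.36), Ndufa8 (0.35) and Atp5c1 (0.31). With median-of-ratios scaling only 10 were higher and 2 were lower. Of 36 ribosomal protein genes, 8 were lower and 1 higher, and 22 were lower under that scaling; the lowest was Rpl3 (-0.19). NRF2 and oxidative stress genes were split 6 to 6 among 22 tested, with a median of 0.05; with median-of-ratios scaling 3 were higher and 8 lower, and the median became -0.02. Hmox1, heme oxygenase, had 143, 127 and 132 FPKM in shDCLK1 cells and 76.3, 81.7 and 78.1 FPKM in control cells (0.76, SE 0.048, adjusted p = 8.27e-06), and Gpx1, glutathione peroxidase, had 52.2, 50.7 and 50.8 FPKM against 23.8, 23.8 and 20.6 FPKM (1.14, adjusted p = 1.95e-06). Me1, malic enzyme, was lower (-0.41, adjusted p = 0.000434).

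**Figure D3:**
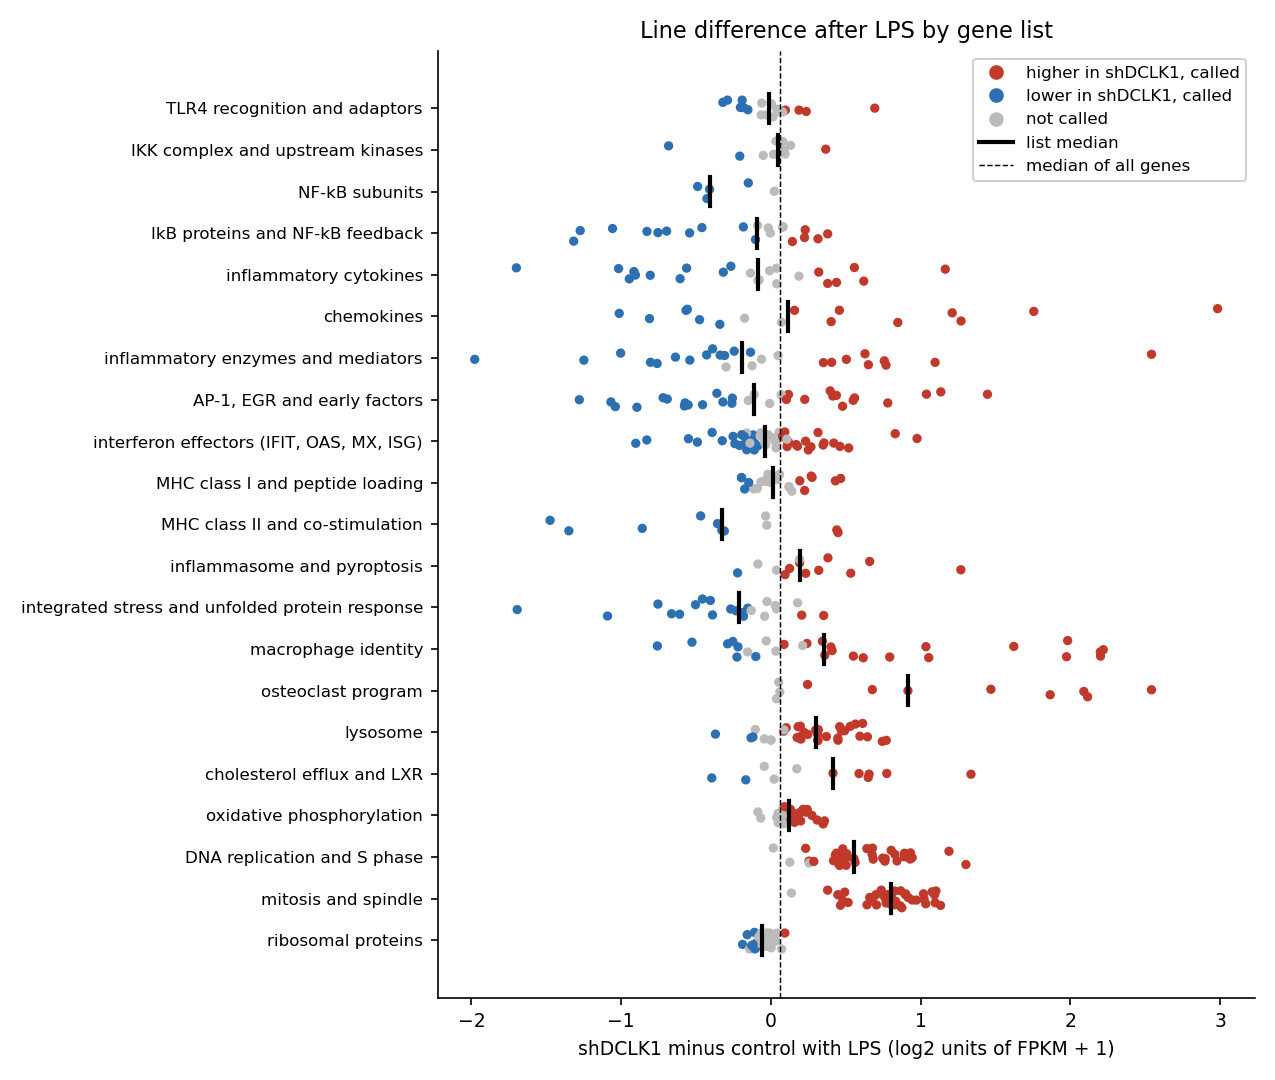
Each row is a gene list and each point a tested member, placed on the x axis by its shDCLK1 minus control difference after LPS in log2 units; red points were called higher, blue points lower and grey points not called, the black bar is the list median and the dashed line the median of all genes, 0.06. The mitosis and DNA replication rows lie wholly to the right of 0, with medians of 0.80 and 0.56, and the NF-κB subunit row lies mostly to the left, with a median of -0.41.

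Genes were also grouped by the average LPS response of both lines, which used all 12 libraries, those of the line comparison included. Of 822 genes raised by LPS by at least 1 log2 unit, 327 were lower in shDCLK1 cells (39.8%) and 250 were higher (30.4%), with a median difference of -0.05. Of 1732 genes lowered by LPS by at least 1 log2 unit, 1041 were higher (60.1%) and 66 lower (3.81%), with a median of 0.24. Among the remaining 7797 genes 2192 were higher and 1177 lower. By size, 34 LPS-raised genes were higher and 30 lower by at least 1 log2 unit, against 60 higher and 2 lower among LPS-lowered genes. The filter used the LPS libraries alone, so a gene that LPS took below 1 FPKM in 1 line stayed only through the other. Of all tested genes, 157 entered through shDCLK1 cells alone and 25 through control cells alone. These class counts include such genes, whose calls support nothing, and their number in each class was not counted.

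Over all genes, the line difference with LPS was largely not the one seen without LPS, though some genes and lists shared it. Without LPS, 4726 genes were called (45.7%), 2250 higher (21.7%) and 2476 lower (23.9%) in the shDCLK1 line; by at least 1 log2 unit, 173 were higher (1.67%) and 16 lower (0.155%). Of the 3483 genes higher with LPS, 949 were also higher without it (27.2% of the list with LPS and 42.2% of the untreated list), and 844 were lower without it (24.2% and 34.1%). Of the 1570 genes lower with LPS, 395 were also lower without it (25.2% and 15.95%) and 447 were higher without it (28.5% and 19.9%). Of the 154 genes higher by at least 1 log2 unit with LPS, 78 were also called higher without it and 20 lower. Of the 45 genes lower by that much, 7 were also called lower without it and 16 higher. The interaction, which tests whether the line difference with LPS differs from that without, was called for 5195 of 10351 genes (50.2%), 3407 above 0 (32.9%) and 1788 below 0 (17.3%). That split depended on scaling, with 2487 above and 2409 below 0 under median-of-ratios scaling and 2607 and 2288 under quantile normalization. By at least 1 log2 unit it was above 0 for 186 genes (1.8%) and below 0 for 213 (2.06%). It was above 0 for 135 of the 154 genes higher by at least 1 log2 unit with LPS, and below 0 for 43 of the 45 genes lower by that much; these genes were chosen on the same LPS libraries that enter the interaction.

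Some genes differed between the lines in the same direction with and without LPS. Without LPS, 28 of 35 lysosomal genes were higher in the shDCLK1 line and 1 lower, with a median of 0.29. Of 28 macrophage identity genes, 23 were higher without LPS and 1 lower, with a median of 0.63. Both lists thus leaned higher in either condition, beside 21.7% of all genes called higher without LPS. Inflammasome genes (9 of 14 higher and 1 lower without LPS, median 0.27) and cholesterol efflux genes (7 of 11 higher and 1 lower, median 0.30) did too. Of 25 glycolysis and hypoxia genes, 17 were lower and 3 higher without LPS (median -0.19), beside 23.9% of all genes called lower. Lyz2 averaged 642 ± 9.35 FPKM in untreated shDCLK1 cells and 97.3 ± 3.61 FPKM in untreated control cells (SD, n = 3 each), a difference of 2.71 beside the 2.22 with LPS. Siglec1 differed by 2.20 with LPS and 2.03 without it, and the interaction was not called (0.17, adjusted p = 0.09). Tm4sf19, a tetraspan membrane protein, differed by 1.77 and 1.95 (interaction -0.18, adjusted p = 0.141). On the lower side Ifi27 differed by -0.90 with LPS and -1.01 without it, Bnip3 by -0.68 and -0.70, and Socs3 by -1.06 and -0.86.

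Other genes showed little line difference without LPS, or the opposite one. Plau averaged 183 ± 1.1 FPKM in untreated shDCLK1 cells and 189 ± 3.62 FPKM in untreated control cells, a difference that was not called (-0.05, adjusted p = 0.529), and the interaction was 3.78 (adjusted p = 2.27e-12). Levels with LPS were below the untreated ones in both lines, and furthest below in the control line. Csf1r averaged 266 ± 5.84 FPKM in untreated shDCLK1 cells and 247 ± 6.22 FPKM in untreated control cells, an interaction of 1.87. Car2 turned round. With LPS it averaged 143 ± 2.78 FPKM in shDCLK1 cells and 32.8 ± 0.919 FPKM in control cells, and without LPS 41.3 ± 0.633 FPKM in shDCLK1 cells and 135 ± 2.45 FPKM in control cells (-1.68), an interaction of 3.77 (adjusted p = 4.65e-15). Dmwd (1.84 with LPS, -1.03 without it) and the NKG2D ligand gene Raet1a (1.67 with LPS, -0.87 without it), which has near-identical copies, changed sign in the same way. Id3, an inhibitor of helix-loop-helix factors, differed by -0.14 with LPS (adjusted p = 0.0343) and by -3.29 without it. Its call with LPS was lost under 7 alternatives, among them leaving out the second (adjusted p = 0.0845) or the third (0.102) shDCLK1 library or the first (0.0957) or the third (0.117) control library.

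The class II genes also turned round. H2-Aa averaged 8.24 ± 0.598 FPKM in shDCLK1 cells and 22.5 ± 0.434 FPKM in control cells with LPS, and 27.4 ± 0.62 FPKM in shDCLK1 cells and 13.3 ± 0.703 FPKM in control cells without it (0.99, interaction -2.33, adjusted p = 4.12e-11). Ccl5 differed by -1.01 with LPS and by 1.03 without it, when it averaged 10.1 ± 1.43 FPKM in shDCLK1 cells and 4.96 ± 3.41 FPKM in control cells. Cxcl10 differed by -0.81 with LPS and by 1.56 without it. Il6 was 0.297 ± 0.0503 FPKM in untreated shDCLK1 cells and 0.0167 ± 0.0289 FPKM in untreated control cells, and Il33 0.0133 ± 0.0115 FPKM in untreated shDCLK1 cells and 0.02 ± 0.0346 FPKM in untreated control cells, both near 0 beside their levels with LPS.

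The interferon effectors showed the widest shift between the conditions among the lists. Their median was -0.04 with LPS and 1.34 without it, where 49 of 52 were higher in the shDCLK1 line and 1 was lower, and the interaction was below 0 for 47. Oasl2 averaged 62.7 ± 1.67 FPKM in untreated shDCLK1 cells and 7.2 ± 0.255 FPKM in untreated control cells, a difference of 2.96 (interaction -2.94, adjusted p = 1.63e-13). Zbp1, a sensor of Z-form nucleic acids (-0.02 with LPS, 2.56 without it), and Lilrb4a, an inhibitory receptor (0.09 with LPS, 2.64 without it), had called interactions of -2.58 and -2.55. The small called difference of Lilrb4a with LPS (adjusted p = 0.0342) was lost under 10 alternatives. The cell division lists moved the opposite way. Without LPS 24 of 41 mitosis genes and 25 of 39 replication genes were lower in the shDCLK1 line, with medians of -0.17 and -0.21. The interaction was above 0 for 40 and 38 of the listed genes, against 32.9% of all genes. Among these lists, 8 mitosis and 3 replication genes passed the filter through shDCLK1 cells with LPS alone. That favours an interaction above 0, and it was not counted without them.

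**Figure D4:**
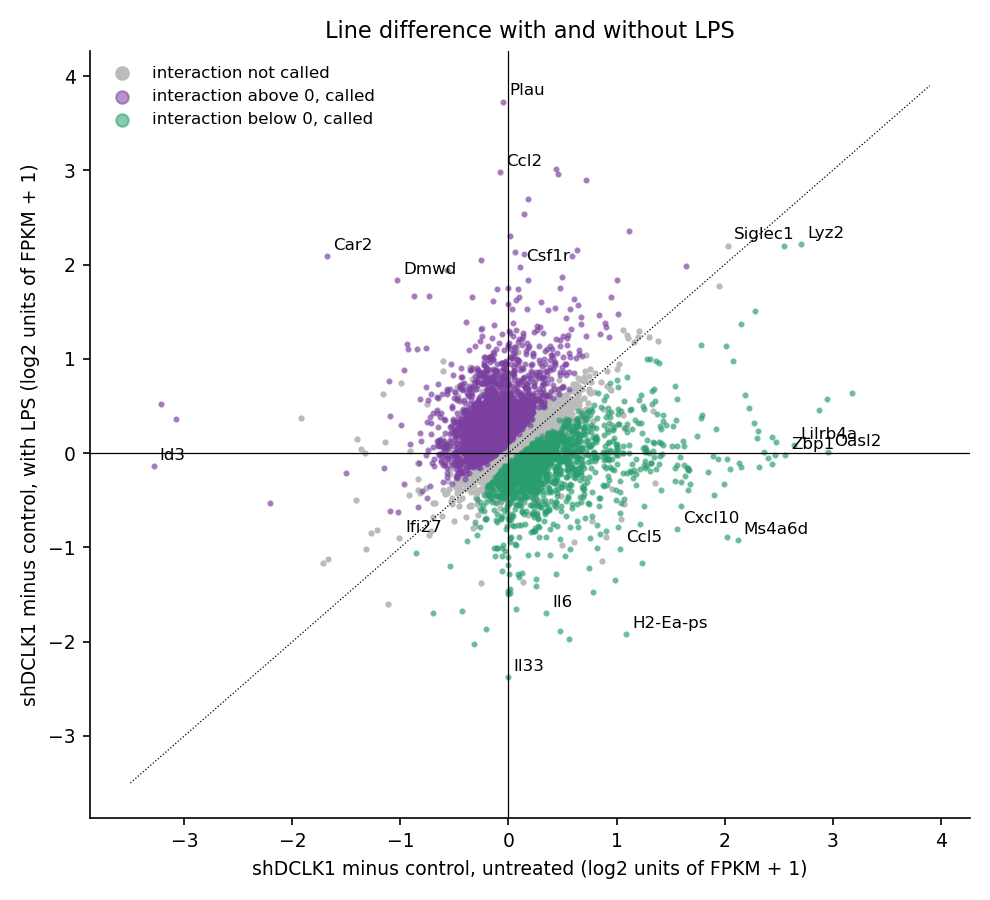
Each point is 1 of 10351 genes, with the shDCLK1 minus control difference without LPS on the x axis and with LPS on the y axis, both in log2 units; purple points have a called interaction above 0, green points below 0, and the dotted line marks equal differences. Plau and Ccl2 lie high with little difference without LPS, Lyz2 and Siglec1 lie near the dotted line, and Oasl2 lies far right with a difference of 0.01 with LPS.

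**Figure D5:**
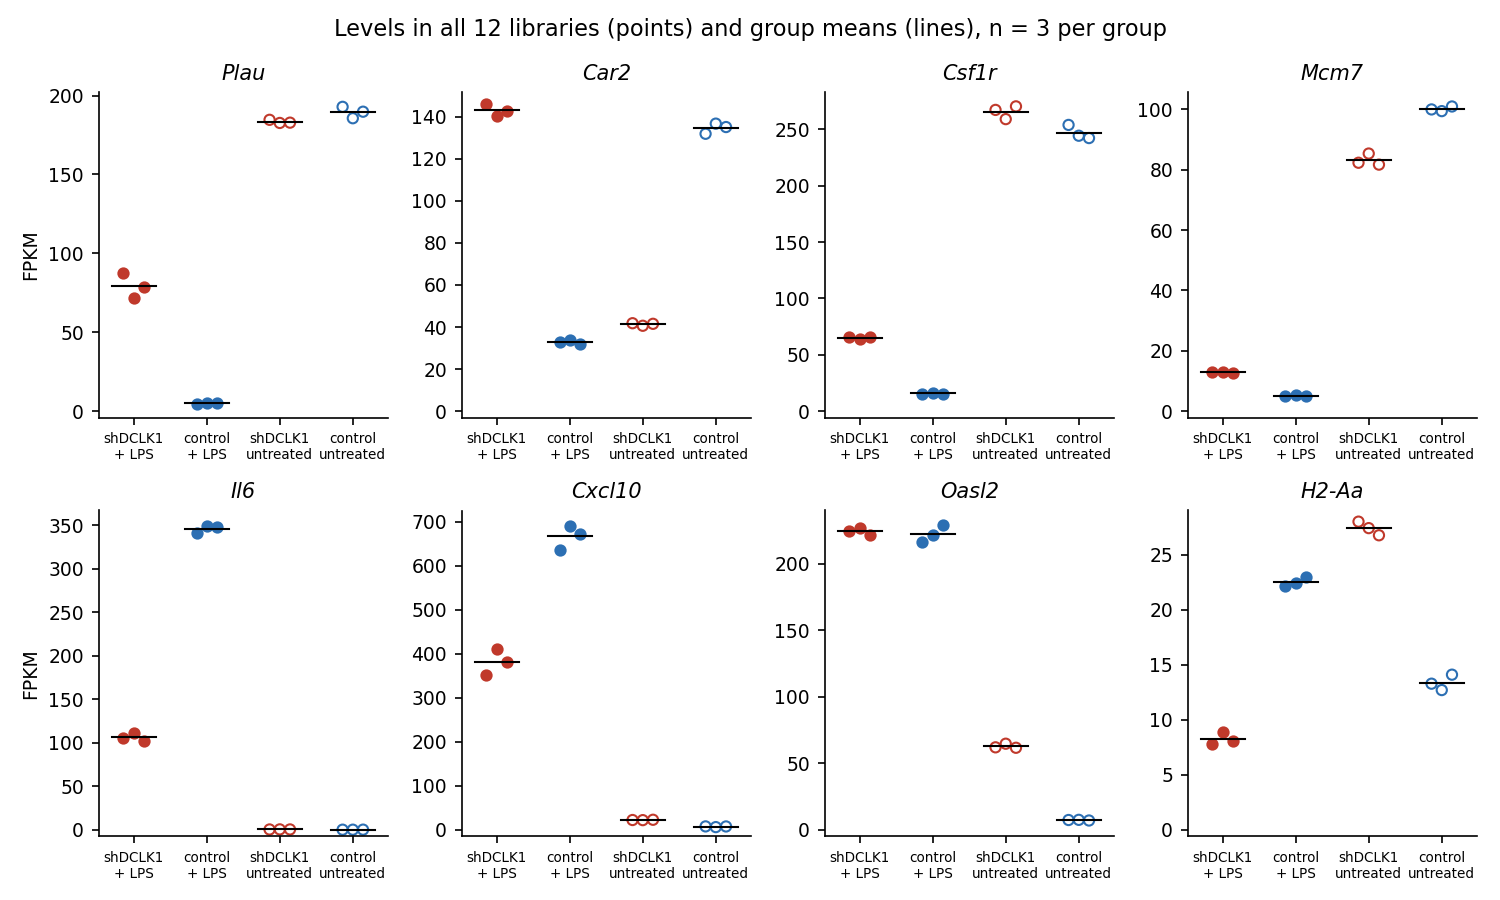
FPKM (y axis, linear) of 8 genes in all 12 libraries, with points for libraries and lines for group means; filled points are LPS-treated and open points untreated, red is shDCLK1 and blue is control. Car2 is high in shDCLK1 cells with LPS and in untreated control cells, at means of 143 and 135 FPKM, and Oasl2 is level between the lines with LPS, at 225 and 222 FPKM.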

How the data were processed

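Paired-end libraries were made from poly(A) RNA, per the labels' protocols. The authors deposited 1 table of FPKM values per gene, 18190 genes by 12 libraries, and every value column was mapped to a sample by its name; 1 unnamed column with 18 entries was not used. Tools listed in the submitters' processing notes, without their roles, are StringTie 1.3.0, HISAT2 2.0 and Bowtie 0.12.2, and the builds listed are mm9 and mm8; annotation and strand setting are not given in the sources used here. Symbols that a spreadsheet had turned into dates were restored for 27 genes from their gene IDs.

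A gene entered when 3 of the 6 LPS libraries or more had at least 1 FPKM. Its log2(FPKM + 1) values were modelled in limma 3.58.1 (R 4.3.3) with a mean trend, on the 6 LPS libraries for the line difference with LPS. The untreated difference, the interaction and the average LPS response were fitted on all 12 libraries with 4 group means. FPKM are not counts, so no count model was used. Depth was estimated only relatively, from short RNA genes selected for near-whole steps, so no counting interval is given.

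The comparison, the members and the 36 gene lists were chosen with earlier results of these data known, and no list was tested as a set. Named genes follow a rule, in which the ranked ones had to be called and, outside the lists, not to be predicted gene models. There were 14 fixed genes of DCLK1 and NF-κB, of which Dclk3 was not analysed here. The 12 most above and 12 most below 0 needed a mean of 5 FPKM or more over the 6 LPS libraries. They also needed no overlap between the lines. The 6 most above and 6 most below 0 in the interaction needed that mean over all 12 libraries. The 3 largest called members of each list in each direction were added, and the 4 largest in each sign combination with and without LPS. Not all were printed. Promoter windows come from RefSeq on GRCm38.p6, matched by gene ID, and the printed ones were then looked up by symbol. Alternatives were pseudocounts, filters, scalings, no variance trend, all libraries in 1 fit, leaving out each library, and the replicate number as a block. The fit was tested on simulated data.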

Additional observations from a re-analysis of the deposited data

Results flagged for a closer look

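The line difference with LPS differed from the line difference without LPS for 5195 of 10351 genes by the interaction test (limma, adjusted p below 0.05), against which single genes are to be read. Single genes were ranked among called genes with a mean of 5 FPKM or more over the 12 libraries, leaving out predicted gene models. In that ranking the 6 genes most above 0 in the interaction were Plau at 3.78, Car2 at 3.77, Id3 at 3.15, Ccl2 at 3.06, Dmwd at 2.86 and Raet1a at 2.54 log2 units. The 6 genes most below 0 were Ms4a6d at -3.05, H2-Ea-ps at -3.01, Oasl2 at -2.94, Ms4a6c at -2.91, Zbp1 at -2.58 and Lilrb4a at -2.55 log2 units. Single outlying libraries were not looked for by a gap test, which groups of 3 do not allow; each library was left out in turn instead.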

How the results depend on the processing

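Of 151 gene results, 140 kept their direction and their side of the threshold under every alternative run and 11 did not; the total of called genes stayed within 1.5 times under each. Calls at a fixed size depend on the pseudocount: with 0.1 FPKM, genes called by at least 1 log2 unit numbered 316 higher with LPS, 307 higher and 26 lower untreated, and 342 above and 323 below 0 in the interaction; with 5 FPKM they numbered 53 higher and 21 lower, 88 higher and 4 lower, and 41 above and 110 below 0. A filter at 5 FPKM gave 101 higher with LPS, 8 lower untreated and 100 above 0. Quantile normalization gave 2255 higher and 2636 lower with LPS, and median-of-ratios scaling 2447 lower. Signs turned for Ikbkb with median-of-ratios scaling (-0.0486) and quantile normalization (-0.0553), for Il1b with median-of-ratios scaling (-0.032), and for Oasl2 with both (-0.0555 and -0.0165); the cause was not tested. Leaving out 1 library moved the difference of Ifnb1 between -0.301 and 0.112, positive without the first shDCLK1 library, and that of Oasl2 between -0.0035 and 0.0359, below 0 without the first control library.

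Same-numbered LPS libraries of the lines showed no shared deviation from their group means (correlations of 0.013, -0.012 and -0.018). With 3 libraries per group this cannot show whether they were handled in pairs. With the replicate number as a block, 4763 genes were called with LPS in place of 5053. The 3 libraries of 1 line per group and the lack of read counts limit what small differences can show.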

Other observations

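The Ms4a6 genes, which encode tetraspan membrane proteins of myeloid cells and are close paralogs that could share reads, turned round between the conditions. With LPS, Ms4a6d had 6.49, 9.53 and 8.2 FPKM in shDCLK1 cells and 14.2, 17.3 and 16.8 FPKM in control cells, lower, at -0.93 log2 units (limma, adjusted p = 0.000399). Without LPS it averaged 4.34 ± 0.323 FPKM in shDCLK1 cells and 0.233 ± 0.159 FPKM in control cells (SD, n = 3 each), a difference of 2.12. Ms4a6c did likewise, at -0.89 with LPS and 2.02 without it.

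Ptgs1, the constitutive cyclooxygenase, passed the filter with LPS through shDCLK1 cells alone, with 1.13, 1.43 and 1.06 FPKM in shDCLK1 cells and 0.3, 0.38 and 0.2 FPKM in control cells (a difference of 0.77). Without LPS it was far more abundant and lower in the shDCLK1 line, at 12.5 ± 0.217 FPKM in shDCLK1 cells and 28 ± 0.526 FPKM in control cells (-1.10). The interaction was 1.87, a value that the filter favours because it kept Ptgs1 for its shDCLK1 level with LPS. No explanation of these values was tested.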
